A study of Homo sapiens with 12 samples.

Results

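Small nucleolar RNA (snoRNA) host transcripts are long RNAs whose introns carry snoRNA genes. The 10 described here, SNHG1, SNHG3, SNHG5, SNHG6, SNHG7, SNHG8, SNHG12, SNHG15, GAS5 and ZFAS1, were chosen by name from the 58302 gene rows of the table. RNA-seq was performed on 12 libraries, 3 from each of 4 lines. TPC1, a cell line from a human papillary thyroid carcinoma, has the genotype wt. D11, WB1 and TD5 are DICER (+/-) derivatives of TPC1, made with a transiently transfected CRISPR/Cas9 plasmid whose guide targets Dicer1, and each is 1 monoclonal population, so a difference between a clone and TPC1 cannot be told apart from a difference of that clone. All 4 lines were grown without further treatment. The study's methods say in general terms that experiments were repeated independently, and the labels do not say which culture each library came from, so p-values measure the spread between these libraries, part of which may be technical.

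SnoRNAs guide the chemical modification of ribosomal RNA. C/D box snoRNAs, named SNORD, direct ribose methylation and H/ACA box snoRNAs, named SNORA, direct pseudouridylation. They are cut out of introns, while the spliced exons of a noncoding host are exported, engaged by ribosomes and in many cases removed by nonsense-mediated decay. Like messenger RNAs for ribosomal proteins, many hosts start with a terminal oligopyrimidine (TOP) tract, which ties their use to growth signals. GAS5 was named for its accumulation in growth-arrested cells.

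The unit is the scaled read, a read count per gene that the authors brought to a common total of 20000000 per library. The depth behind it, estimated from the spacing of the values, was 12700000 to 21022000 reads, and 3 reads, used as the detection floor, equal 2.85 to 4.72 scaled reads (counting error only). DICER1, the targeted gene, had 1360, 1129 and 1101 scaled reads in TPC1, 977, 1051 and 1093 in D11, 881, 939 and 815 in WB1, with 643, 627 and 809 in TD5. It fell in WB1 (log2 fold change −0.43, adjusted p = 0.00404) and TD5 (−0.77, 9.02e-05), and the value in D11 was −0.19 (0.138). Among the thyroid follicular markers, PAX8, FOXE1 and TG were detected and TSHR, SLC5A5 and NKX2-1 were at 0 in all 12 libraries, and 6 immune and endothelial markers summed to 2 to 15 scaled reads per library.

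Host transcripts were higher than in TPC1 in the clones D11 and WB1 and not in TD5. Of the 10 members, 9 passed the filter on low values (at least 1 per 1000000 in at least 3 libraries), and SNHG15 did not. In D11, 7 of the 9 rose at an adjusted p under 0.05, against 19.9% of the 16027 tested genes that rose, and 2 of them, SNHG1 and SNHG3, rose by at least 1.5-fold (2.89% of all genes). None fell in D11 (13.4% of all genes fell, 1.95% by at least 1.5-fold). In WB1, 6 rose (18.6% of all genes), 0 by at least 1.5-fold (3.39%), and 0 fell (12.3%). In TD5, 0 rose (5.32% of all genes) in the limma fit, also at an unadjusted p under 0.05 and in a voom fit of the estimated reads, and 1, SNHG8, fell (6.57% of all genes fell). The median log2 fold change of the 9 was 0.38 in D11, 0.25 in WB1 and −0.03 in TD5, beside medians of 0.05, 0.06 and 0.00 over all tested genes. Each library was also corrected for the GC content of its genes, taken over all merged exons and not over the isoforms expressed here. With that correction 5 hosts rose in D11 (10.7% of all genes), only SNHG3 by at least 1.5-fold (SNHG1 was at 0.55). Under that correction 3 hosts rose in WB1 (12% of all genes), SNHG1, SNHG3 and SNHG12. The medians were then 0.20 in D11 and 0.12 in WB1, beside −0.003 and −0.002 over all tested genes. With median-of-ratios scaling 14.4% of all genes rose and 18.5% fell in D11, while 6 hosts rose there and 5 in WB1 (13% of all genes). These 3 comparisons share the TPC1 libraries and are not independent of each other.

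The summed level of the 10 rows gave the same order. It was 12849, 12445 and 12253 scaled reads in TPC1, 16262, 16869 and 15655 in D11, 14599, 15167 and 13621 in WB1, with 12231, 12124 and 11683 in TD5. The D11 and WB1 libraries thus all lay above those of TPC1. The TD5 libraries all lay below them, the nearest narrowly (12231 beside 12253). Abundant hosts such as GAS5 weigh most in this sum. Of the 9 tested hosts, 4 had a log2 fold change above 0 in TD5 and 5 had one below 0. In bulk RNA, fewer cells with a transcript and less of it per cell cannot be told apart. A further group of transcripts moved with the clones. All 13 protein genes of the mitochondrial genome rose in every clone (19.9% of all genes rose in D11, 18.6% in WB1 and 5.32% in TD5). They went from 1.04 to 1.16% of the library in TPC1 to 1.67 to 1.77% in D11, 1.53 to 1.80% in WB1 and 1.34 to 1.57% in TD5, and their part in the host values was not tested.

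**Figure D1:**
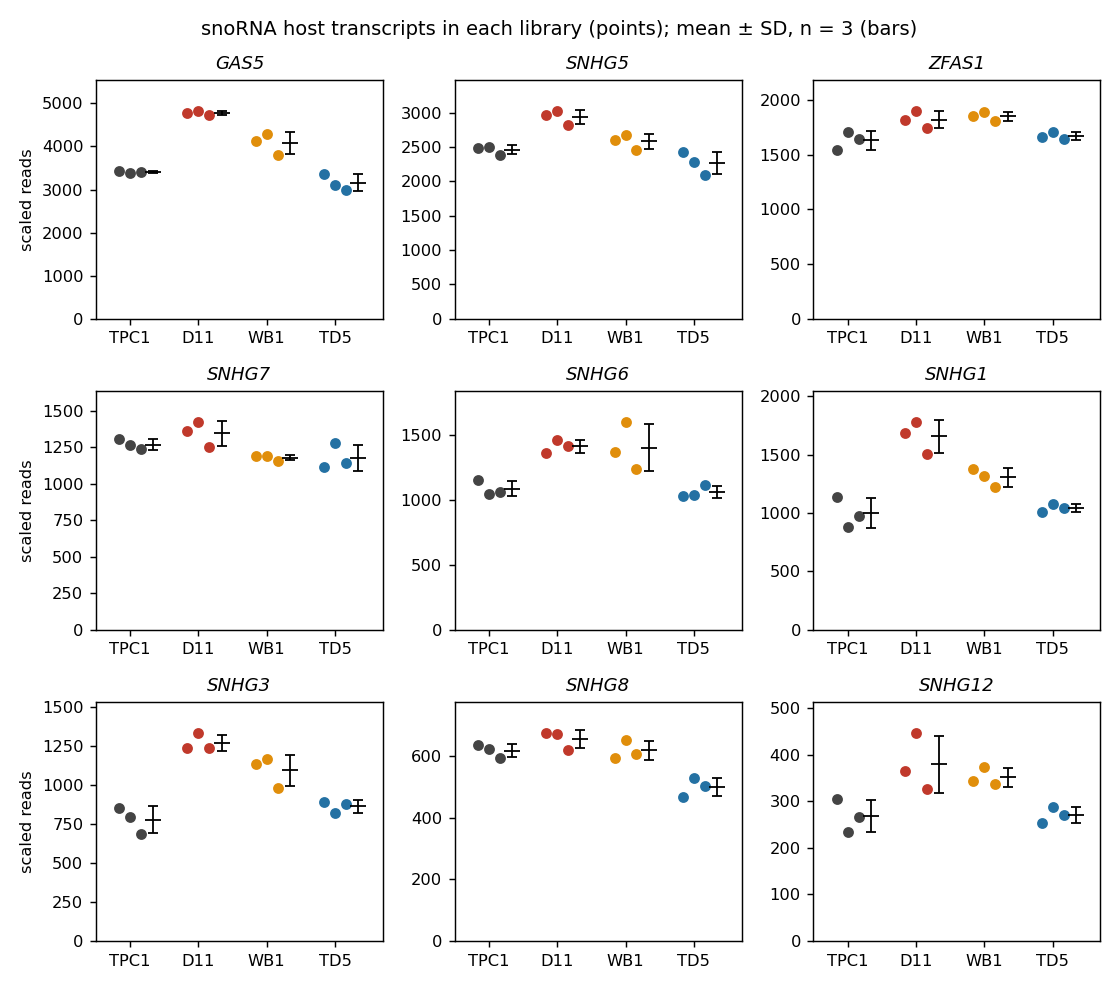
Scaled reads of the 9 tested hosts in each of the 12 libraries (y axis from 0, points), with the mean and SD of the 3 libraries of a line as bars. The D11 points of GAS5 (4737 to 4827) lie above every point of the other lines, whereas those of SNHG7 overlap with TPC1.

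The starts of these genes share letters that the choice by name did not use. RefSeq promoter windows on GRCh38.p14, matched by symbol, were used for 8 of the 10 members. No window was used for SNHG6 or SNHG15, so the counts of windows below do not cover them. The 7 shown are the 40 bases before and the first 20 bases after the annotated start, 5′ to 3′. Capitals mark the uninterrupted run of C and T that covers the first transcribed base, if it holds at least 5 letters, and the motif TATAA where it begins and ends within bases 40 to 21 before the start. The GAS5 window is not shown, because its RefSeq start lies 163 bases outside the gene in the GENCODE annotation used for the other positions. The SNHG3 start lies 37 bases outside its gene as well, at the annotated start of RCC1, and its window is shown with that limit. Both windows are counted among the 8. The RefSeq starts of SNHG12, ZFAS1 and SNHG5 lie inside their genes, 1259, 464 and 199 bases from the outermost annotated start.
SNHG1 (chr11:62855866-62855925, minus strand): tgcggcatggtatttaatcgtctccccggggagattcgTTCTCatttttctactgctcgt
SNHG3 (chr1:28505903-28505962, plus strand): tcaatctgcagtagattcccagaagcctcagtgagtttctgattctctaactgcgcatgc
SNHG5 (chr6:85678714-85678773, minus strand): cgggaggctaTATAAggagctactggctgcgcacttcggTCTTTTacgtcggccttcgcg
SNHG7 (chr9:136728165-136728224, minus strand): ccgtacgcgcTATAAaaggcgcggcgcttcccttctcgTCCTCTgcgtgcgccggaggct
SNHG8 (chr4:118278722-118278781, plus strand): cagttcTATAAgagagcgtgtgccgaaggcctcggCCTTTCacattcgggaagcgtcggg
SNHG12 (chr1:28581854-28581913, minus strand): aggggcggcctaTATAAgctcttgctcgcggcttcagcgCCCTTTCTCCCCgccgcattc
ZFAS1 (chr20:49278602-49278661, plus strand): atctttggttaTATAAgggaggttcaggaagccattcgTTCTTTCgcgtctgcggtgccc

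A C/T run of at least 5 letters covered the start in 6 of the 8 windows, against 9.8% of 27305 promoters in the same table. TATAA stood in that stretch on the transcribed strand in 5 of 8 (4.07% of all), and SNHG5, SNHG7, SNHG8, SNHG12 and ZFAS1 held both, which 0.275% of all promoters do. The run was longest in SNHG12, with 12 letters. The E-box CACGTG, which reads the same on both strands, occurred in the 300 bases of 1 of the 8, SNHG7 (7.43% of all). Of the 5 hosts with both features, SNHG12 and ZFAS1 rose in D11 and WB1, SNHG5 rose in D11 alone, and SNHG7 and SNHG8 passed the test in neither. With the GC correction SNHG7 passed in D11 (0.20, adjusted p = 0.0211), and SNHG5 (0.07, 0.485) and ZFAS1 (0.11, 0.18) did not. ZFAS1 did not pass in WB1 either (0.12, 0.127). A link between these letters and the values was not tested. A window without these letters says only that they are not in it.

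SNHG1 and SNHG3 had the largest changes. SNHG1 (ENSG00000255717, chromosome 11, 62851978 to 62855953, minus strand) carries C/D box snoRNAs, among them SNORD22 and SNORD25 to SNORD28. It had 1137, 882 and 977 scaled reads in TPC1, 1688, 1780 and 1505 in D11, 1381, 1315 and 1223 in WB1, with 1013, 1076 and 1044 in TD5. Every D11 and WB1 library lay above TPC1 (as for 29.5% of all genes in D11 and 26.5% in WB1). Every D11 library lay above WB1 (12.4% of all genes), and the TD5 libraries fell within the range of TPC1. The mean rose from 999 ± 129 (SD, n = 3) in TPC1 to 1658 ± 140 in D11 (log2 fold change 0.72, standard error 0.086, adjusted p = 2.11e-05) and 1306 ± 79.4 in WB1 (0.39, 0.00356, or 0.23, 0.0344 with the GC correction). In TD5 it was 1044 ± 31.5 (0.07, 0.656).

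SNHG3 (ENSG00000242125, chromosome 1, 28505980 to 28510892, plus strand) carries the H/ACA snoRNAs SNORA73A and SNORA73B, which act in the cleavage of the ribosomal RNA precursor. Its values were 856, 798 and 684 in TPC1, 1241, 1335 and 1241 in D11, 1136, 1171 and 982 in WB1, with 892, 819 and 881 in TD5. D11 and WB1 did not overlap with TPC1, and TD5 did. The rise was 1.62-fold in D11 (log2 fold change 0.70, standard error 0.085, adjusted p = 2.76e-05) and 1.40-fold in WB1 (0.48, 0.000703), and the value in TD5 was 0.15 (0.276).

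GAS5 (ENSG00000234741, chromosome 1, 173858559 to 173868882, minus strand) was the most abundant member. It had 3439, 3383 and 3407 scaled reads in TPC1, 4780, 4827 and 4737 in D11, 4127, 4297 and 3808 in WB1, with 3371, 3112 and 2994 in TD5. The 4 lines did not overlap at all, in the order D11, WB1, TPC1 and TD5. GAS5 rose 1.40-fold in D11 (log2 fold change 0.49, standard error 0.058, adjusted p = 2.26e-05) and 1.19-fold in WB1 (0.25, 0.00412). The TD5 value of −0.11 did not pass the test (0.232), although all its libraries lay below TPC1 (14.6% of all genes). With the GC correction the value in WB1 was 0.09 (0.235), while D11 kept its call at 0.31.

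SNHG12 (ENSG00000197989, chromosome 1, 28578538 to 28583132, minus strand), host of SNORA16A, SNORA44, SNORA61 and SNORD99, had the fewest scaled reads of the tested members. Its values were 304, 234 and 267 in TPC1, 364, 446 and 327 in D11, 343, 374 and 337 in WB1, with 254, 287 and 271 in TD5. It rose 1.38-fold in D11 (log2 fold change 0.46, standard error 0.11, adjusted p = 0.00592) and 1.29-fold in WB1 (0.37, 0.0203), and in TD5 it was 0.02 (0.944). SNHG12 no longer passed in WB1 without TPC1 replicate 2 (0.28, 0.0966), TPC1 replicate 3 (0.37, 0.058) or WB1 replicate 2 (0.33, 0.0808).

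SNHG6 (ENSG00000245910), host of SNORD87, had 1152, 1045 and 1060 scaled reads in TPC1, 1365, 1465 and 1414 in D11, 1368, 1600 and 1239 in WB1, with 1034, 1038 and 1116 in TD5. All D11 and WB1 libraries lay above TPC1, and the 3 WB1 libraries were the most spread (1402 ± 183, n = 3). The rise was 1.30-fold in D11 (log2 fold change 0.38, standard error 0.081, adjusted p = 0.00286) and 1.28-fold in WB1 (0.36, 0.00391), beside −0.03 (0.859) in TD5. The GC correction brought it to 0.13 in D11 (0.134) and 0.15 in WB1 (0.0788), past the test in neither. Its merged exons, with 38.8% GC, were the poorest in GC of the 10, and the median tested gene had 48%. The GC content used was that of all merged exons, 2527 bases for SNHG6, whose median isoform has 519.

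ZFAS1 (ENSG00000177410, chromosome 20, 49278178 to 49299600, plus strand), a host of the SNORD12 family that is transcribed from the start of ZNFX1 in the opposite direction, changed little. Its values were 1539, 1706 and 1643 in TPC1, 1819, 1899 and 1742 in D11, 1854, 1891 and 1805 in WB1, with 1664, 1706 and 1638 in TD5. D11 and WB1 lay wholly above TPC1, by 1.12-fold (log2 fold change 0.16, standard error 0.059, adjusted p = 0.0495) and 1.13-fold (0.18, 0.0284), and TD5 was at 0.04 (0.757). In D11 the call was lost without TPC1 replicate 1 (0.12, 0.169) or 3 (0.16, 0.09), any D11 library (0.13 to 0.19, 0.0603 to 0.179), any WB1 library (0.16, 0.0552 to 0.0574) or TD5 replicate 1 (0.16, 0.0573). It was also lost with the replicate number as a block (0.055), a pseudocount of 0.1 (0.0506), no filter on low values (0.0765) or median-of-ratios scaling (0.10, 0.225). Corrections for GC content (0.11, 0.18) and for the length of all merged exons (0.06, 0.498) ended the call as well. In WB1 it was lost without TPC1 replicate 1 (0.14, 0.107) or 3 (0.19, 0.0599), or WB1 replicate 1 (0.18, 0.0683) or 2 (0.17, 0.0935), with that scaling (0.12, 0.155), and with the correction for GC content (0.12, 0.127) or length (0.09, 0.295).

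SNHG5 (ENSG00000203875, chromosome 6, 85650491 to 85678932, minus strand), host of SNORD50B, had 2483, 2505 and 2388 scaled reads in TPC1 and 2966, 3024 and 2816 in D11. It had 2604, 2675 and 2460 in WB1 and 2420, 2280 and 2096 in TD5. D11 stood above the other 3 lines, and it rose there 1.19-fold (log2 fold change 0.25, standard error 0.062, adjusted p = 0.00608), whereas the values in WB1 (0.07, 0.418) and TD5 (−0.12, 0.227) did not pass. The D11 call was lost with the GC correction (0.07, 0.485) and with the length correction (0.14, 0.127). The length used was that of all merged exons, 12604 bases for SNHG5, whose median isoform has 1105.

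SNHG7 and SNHG8 did not rise in any clone. SNHG7 (ENSG00000233016, chromosome 9, 136721366 to 136728184, minus strand), host of SNORA17A and SNORA17B, had 1304, 1265 and 1234 in TPC1, 1363, 1422 and 1250 in D11, 1191, 1189 and 1157 in WB1, with 1111, 1277 and 1140 in TD5. The log2 fold changes were 0.08 in D11 (adjusted p = 0.363), −0.10 in WB1 (0.262) and −0.11 in TD5 (0.329). SNHG7, at 59.3% GC the richest of the 10, was at 0.20 in D11 with the GC correction (0.0211), past the test. SNHG8 (ENSG00000269893, chromosome 4, 118278703 to 118285316, plus strand), host of SNORA24, had 634, 624 and 593 in TPC1, 674, 671 and 620 in D11, 595, 653 and 608 in WB1, with 468, 527 and 501 in TD5. It fell in TD5 to 499 ± 29.6 from 617 ± 21.4 in TPC1 (n = 3 each, log2 fold change −0.30, standard error 0.0745, adjusted p = 0.0154), and was at 0.08 in D11 (0.401) and 0.00 in WB1 (0.981). The call was lost without TPC1 replicate 1 (−0.28, 0.059) or TD5 replicate 1 (−0.25, 0.0707), and in a fit of the TPC1 and TD5 libraries alone (0.0609).

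SNHG15 (ENSG00000232956, chromosome 7, 44983019 to 44986961, minus strand), host of SNORA9, was listed at 1, 3 and 0 scaled reads in TPC1, 2, 0 and 3 in D11, 0, 2 and 2 in WB1, with 4, 2 and 2 in TD5. All 12 values lay at or under the floor of 3 reads, so no fold change is given and a difference was not detectable at this depth. The SNORA9 row inside it was at 0 in 11 libraries and at 2 in TD5 replicate 1.

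The clones were also set against each other. TD5 stood below D11 for 7 of the 9 tested hosts (14.8% of all genes fell in that comparison), and SNHG1 (log2 fold change −0.65, adjusted p = 6.73e-05) and GAS5 (−0.60, 2.37e-06) fell by at least 1.5-fold (2.32%). None was higher in TD5 (8.43% of all genes). SNHG3 (−0.55, 0.000321), SNHG12 (−0.45, 0.00956), SNHG6 (−0.41, 0.00211), SNHG8 (−0.38, 0.0019) and SNHG5 (−0.37, 0.000531) completed the 7, while SNHG7 (−0.19, 0.0524) and ZFAS1 (−0.12, 0.143) did not pass. Leaving out D11 replicate 2 took SNHG12 to −0.33 (0.0665), and with the GC correction neither SNHG1 nor GAS5 reached 1.5-fold. That correction also ended the call of SNHG8 (−0.17, 0.141), brought SNHG6 to −0.19 (0.0308) and SNHG5 to −0.21 (0.0248), and took SNHG7 past the test (−0.27, 0.00326).

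TD5 was below WB1 for 6 of the 9 (9.12% of all genes): SNHG6 (−0.39, 0.00568), GAS5 (−0.37, 0.000742), SNHG12 (−0.35, 0.0466), SNHG3 (−0.33, 0.0171), SNHG1 (−0.32, 0.0234) and SNHG8 (−0.30, 0.0145). None of them reached 1.5-fold (1.72% of all genes), and none was higher in TD5 (4.52%). The 6 dropped to 3 without WB1 replicate 1 and to 2 without WB1 replicate 2. Single calls were also lost without TD5 replicate 1 (SNHG1 −0.29, 0.0665, and SNHG8 −0.26, 0.0544), without TD5 replicate 2 (SNHG3 −0.30, 0.0694), and for SNHG12 in 8 of the 12 fits that left out a library (0.0533 to 0.16), with the replicate number as a block (0.0638), with median-of-ratios scaling (0.074), with the length correction (0.0525), with no filter on low values (0.0904), with voom (0.055) and with only these lines fitted (0.0518). The GC correction ended the calls of SNHG1 (−0.18, 0.125), SNHG8 (−0.13, 0.306) and SNHG12 (−0.33, 0.0527) and brought SNHG6 to −0.21 (0.0267) and GAS5 to −0.23 (0.0116). SNHG1 was also lost with no filter on low values (0.051) and SNHG8 with only these lines fitted (0.0598). WB1 was below D11 for SNHG1 (−0.34, 0.0206) and GAS5 (−0.23, 0.0189), 2 of 9 (3.42% of all genes), and 0 hosts were higher in WB1 (4.65% of all genes, 1.97% by at least 1.5-fold). Both calls were lost without D11 replicate 1 (SNHG1 0.0797, GAS5 0.0675), D11 replicate 2 (0.121 and 0.0826) or WB1 replicate 3 (0.104 and 0.118), GAS5 alone without D11 replicate 3 (0.0568) and SNHG1 alone without WB1 replicate 2 (0.0533).

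**Figure D2:**
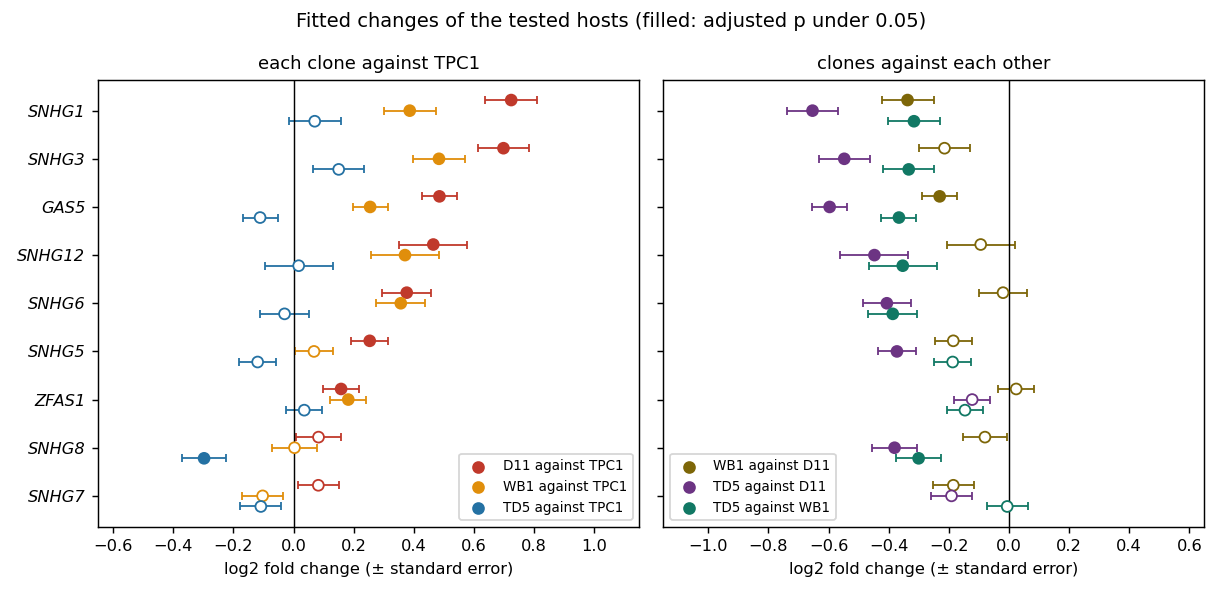
Log2 fold changes (x axis, with standard errors) of the 9 tested hosts, each clone against TPC1 on the left and the clones against each other on the right; filled points passed an adjusted p of 0.05. On the left, D11 runs from 0.08 to 0.72 and TD5 from −0.30 to 0.15, and on the right all TD5 points lie below 0.

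D11 had the highest mean of the 4 lines for 8 of the 9 tested hosts, beside 31.4% of all tested genes, and ZFAS1, highest in WB1, was the exception. All 3 D11 libraries lay above TPC1 for 7 of the 9 (29.5% of all genes) and below for 0 (21.2%). The WB1 libraries lay above for 6 (26.5%) and below for 1 (18.8%), and those of TD5 above for 0 (11.9%) and below for 2 (14.6%). No member had all 9 clone libraries on the same side of the 3 TPC1 libraries (5.17% of all genes had them all above and 6.51% all below). The spread between members was wide within D11. SNHG1 and SNHG3 had risen by over 1.6-fold where SNHG7 and SNHG8 were at 1.06-fold (adjusted p = 0.363 and 0.401).

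Rows for the snoRNAs themselves were examined next. The table held 25 snoRNA rows inside the members, of which 3 repeated another row exactly, leaving 22, and 16 of these passed the filter. In the annotation 19 of the 22 overlap an exon of a host isoform, and the libraries were made from polyadenylated RNA, so host and snoRNA reads cannot be told apart in these rows and they are no measure of mature snoRNA, which has no poly(A) tail. Of the 16, 7 rose in D11 (19.9% of all genes) and 3 in WB1 (18.6%), and none fell in either, and in TD5 none passed in the limma fit (1 at an unadjusted p under 0.05). The strongest was SNORD22 inside SNHG1, a C/D box snoRNA, with 43, 40 and 41 scaled reads in TPC1, 94, 108 and 90 in D11, 65, 71 and 56 in WB1, with 67, 50 and 43 in TD5. It rose in D11 by 0.93 (adjusted p = 0.000105) and in WB1 by 0.45 (0.0162) on the log2 scale, and was at 0.24 in TD5 (0.244). SNORA61 inside SNHG12 had 51, 46 and 43 in TPC1, 69, 86 and 69 in D11, 78, 90 and 63 in WB1, with 60, 37 and 41 in TD5, and rose by 0.50 in D11 (0.0149) and 0.53 in WB1 (0.0114). The other 5 that rose in D11 were SNORD25, SNORD26 and a further row named SNORD22 in SNHG1, SNORD50B in SNHG5 and SNORD12 in ZFAS1. snoRNAs of GAS5 were not analysed here.

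The snoRNA rows were also summed over each host and set beside the host row. Those inside SNHG1 went from 129 ± 23.3 (SD, n = 3) in TPC1 to 261 ± 25.2 in D11, a ratio of 2.02 beside 1.66 for the host. Those inside ZFAS1 had 38, 17 and 23 in TPC1 and 49, 62 and 46 in D11, a ratio of 2.01 beside 1.12 for the host. The single row inside SNHG8, SNORA24, had 13, 14 and 17 in TPC1, 24, 34 and 22 in D11 and 29, 27 and 24 in WB1. All 6 of those clone libraries were above TPC1, as 29.5% of all genes were in D11 and 26.5% in WB1. Neither comparison passed the test (adjusted p = 0.0515 and 0.0507). The snoRNA ratio was below that of the host for SNHG3 in all 3 clones (1.45 beside 1.63 in D11), for SNHG12 in D11 (1.37 beside 1.41) and TD5, for SNHG6 in WB1 (1.09 beside 1.29), and for SNHG5 and SNHG7 in TD5. These ratios rest on 11.7 to 129 scaled reads in TPC1 and the difference between host and snoRNA rows was not tested.

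**Figure D3:**
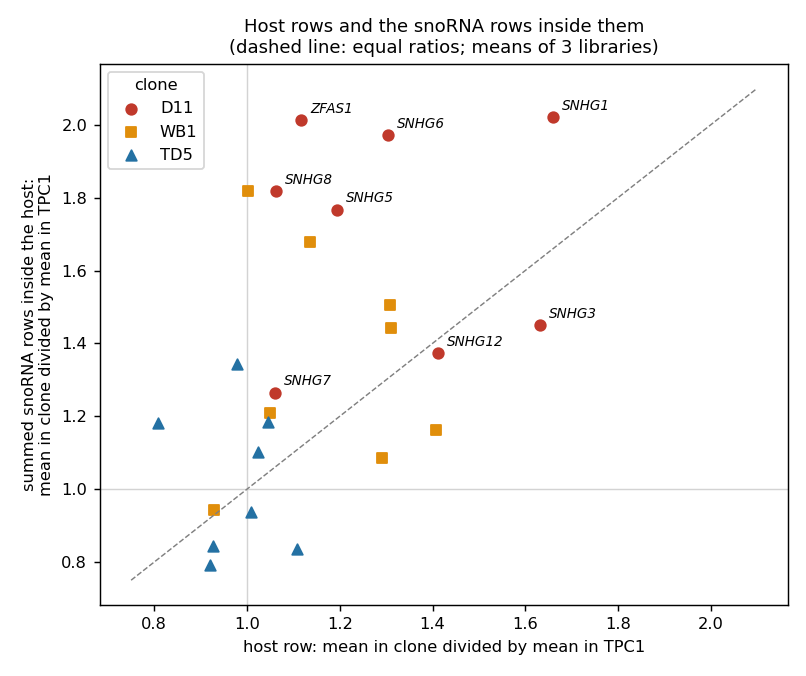
Ratio of the clone mean to the TPC1 mean for the host row (x axis) and for the summed snoRNA rows inside it (y axis), 1 point per host and clone for the 8 hosts with snoRNA rows above the floor; the dashed line marks equal ratios. In D11, ZFAS1 (1.12 and 2.01), SNHG8 and SNHG6 lie far above the line and SNHG3 and SNHG12 below it.

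Several hosts share ground with another gene. Within the table, 7 of 93 pairs of genes that almost coincide on the same strand had identical values in all 12 libraries, and 0 of 25 such pairs on opposite strands did, so overlapping features on one strand could each receive the same reads. On the strand of SNHG3, the longer RCC1, which encodes the exchange factor of the nuclear GTPase Ran, had 2871, 2616 and 2653 scaled reads in TPC1 and 2622, 2672 and 2573 in D11, and its log2 fold change was −0.05 in D11 (adjusted p = 0.622), −0.17 in WB1 (0.0854) and −0.02 in TD5 (0.902), unlike SNHG3. AL589666.1, on the strand of SNHG5, had 1231 in the mean in TPC1 and was at 0.15 in D11 (0.0528), and it rose by 0.16 in WB1 (0.0391). Inside ZFAS1, the rows ZNFX1-AS1_2 and ZNFX1-AS1_3 had 949 to 1129 and 788 to 929 scaled reads, so a large part of the ZFAS1 value may be shared with them, and neither passed the test in any clone (0.155 to 0.885).

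On opposite strands, GAS5-AS1 lies inside GAS5 and had 238, 221 and 246 in TPC1 and 321, 310 and 304 in D11, a rise of 0.38 (adjusted p = 0.00871). ZBTB37, a zinc finger gene beside GAS5, rose by 0.45 in D11 (0.0105) and 0.46 in WB1 (0.00904). MCMDC2, opposite SNHG6, rose by 0.40 in D11 (0.0169) and 0.32 in WB1 (0.0441). PRSS12, a serine protease gene opposite SNHG8, moved more than SNHG8 did, with 138, 130 and 152 in TPC1 and 38, 34 and 35 in D11 (−1.52, 1.58e-07). It fell in TD5 as SNHG8 did (−0.63, 0.00239). ZNFX1, opposite ZFAS1, fell by 0.18 in D11 (0.0153) on the log2 scale, and FAM69B and TRNAU1AP passed in no clone (0.122 to 0.966). The library kit keeps strand, and whether the counting used it is not given in the sources used here, so reads of opposite genes may not be fully separated.

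Other snoRNA hosts were taken from lists. Of 19 other noncoding hosts, all tested, 6 rose and 2 fell in D11 (beside 19.9% and 13.4% of all genes), 2 rose and 2 fell in WB1 (18.6% and 12.3%), and 0 rose and 3 fell in TD5 (5.32% and 6.57%). SNHG21 (0.50, adjusted p = 0.0283), SNHG20 (0.45, 0.00289), SNHG4 (0.43, 0.00514), SNHG17 (0.33, 0.0104), C6orf48 (0.27, 0.0153) and LRRC75A-AS1 (0.18, 0.0135) rose in D11. DANCR, a regulator of differentiation, fell in all 3 clones, by 0.56 in D11 (0.000444), 0.35 in WB1 (0.00945) and 0.42 in TD5 (0.00675). SNHG16 fell by 0.30 in WB1 (0.00253) and 0.29 in TD5 (0.00693), and SNHG18 fell by 0.45 in D11 (0.0358). SNHG9 had a mean of 63.3 scaled reads in TPC1 and 33.0 in TD5 and fell there by 0.69 (0.0176), the only gene of this list past 1.5-fold against TPC1.

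Hosts that code for proteins were counted separately. Of 24 ribosomal protein hosts, which carry snoRNAs in their introns and TOP tracts at their starts, 2 rose and 1 fell in D11 (19.9% and 13.4% of all genes), 0 rose and 1 fell in WB1 (18.6% and 12.3%), and 0 passed in TD5 (5.32% and 6.57%), with medians of −0.04, −0.05 and 0.00. RPL37 (0.17, adjusted p = 0.0258) and RPL23 (0.17, 0.0316) rose in D11, and RPS3 fell in D11 (−0.18, 0.0417) and WB1 (−0.20, 0.0299). Of 21 other coding hosts, 5 rose and 2 fell in D11, 3 rose and 1 fell in WB1, and 0 passed in TD5, beside the same shares of all genes. TAF1D, a subunit of the RNA polymerase I initiation factor, rose from 1385 to 2132 scaled reads in D11 (0.61, 0.00054) and by 0.34 in WB1 (0.0219), and was at −0.03 in TD5 (0.908). EIF4A2, a translation initiation helicase, rose by 0.38 in D11 (0.00138) and 0.32 in WB1 (0.0046), and EEF2, the elongation factor, fell by 0.24 (0.0185) and 0.33 (0.00324).

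Proteins that assemble or bind snoRNAs formed the next list. Of 18 tested, 0 rose and 6 fell in D11 (19.9% and 13.4% of all genes) and in WB1 (18.6% and 12.3%), and 0 rose and 1 fell in TD5 (5.32% and 6.57%). NOLC1, a nucleolar chaperone of snoRNPs, fell in D11 (−0.30, adjusted p = 0.000856), WB1 (−0.40, 7.81e-05) and TD5 (−0.33, 0.000912), and the helicase RUVBL2 fell in D11 (−0.32, 0.0108) and WB1 (−0.39, 0.00377). The core proteins SNU13 and NHP2 fell in D11 (−0.23, 0.0128, and −0.24, 0.0175) and in WB1 (−0.21, 0.0215, and −0.22, 0.0233). FBL, the methylase, fell in WB1 alone (−0.23, 0.0105) and DKC1, the pseudouridine synthase, passed in no clone (0.217 to 0.774). Of 12 factors of nonsense-mediated decay, 2 rose and 2 fell in D11, 2 rose and 3 fell in WB1, and 0 passed in TD5, beside the same shares of all genes. The kinase SMG1 rose by 0.37 in D11 (0.00724) and 0.35 in WB1 (0.00984) and UPF3A by 0.29 in both (0.00659 and 0.00778), while SMG5 fell by 0.19 (0.0314) and 0.28 (0.00457). UPF1, the central helicase, was at −0.18 in D11 (0.0658) and fell in WB1 (−0.27, 0.0122).

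**Figure D4:**
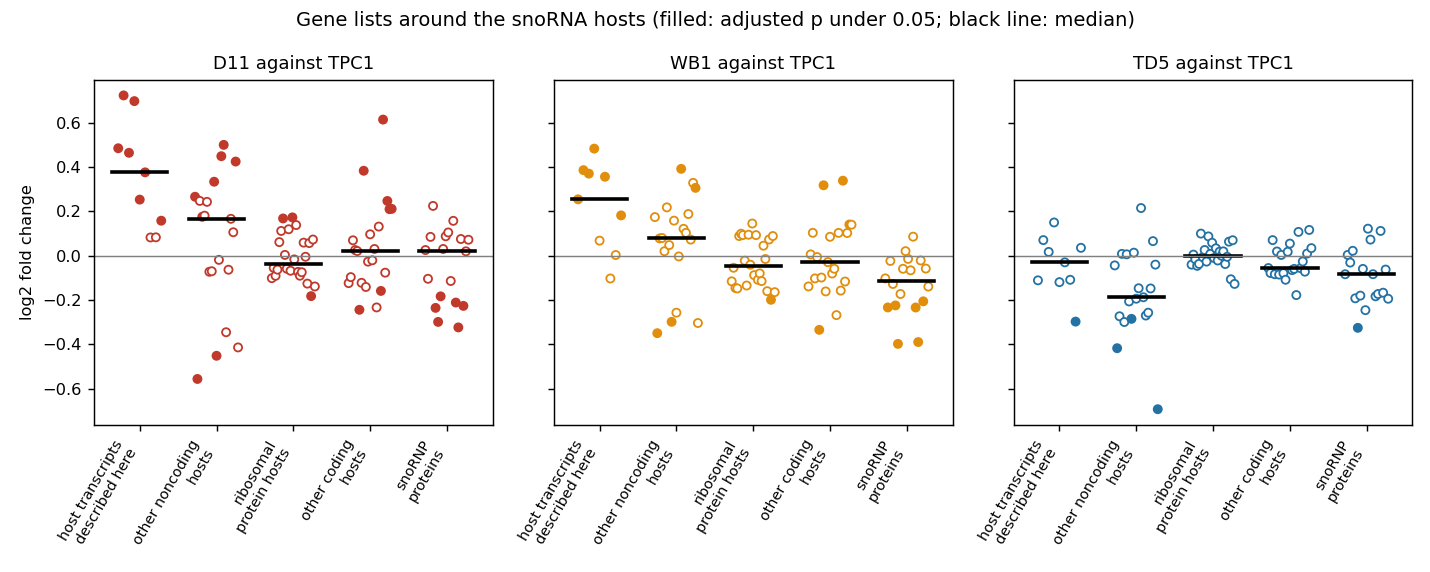
Log2 fold change against TPC1 (y axis) of each tested gene of 5 lists, 1 panel per clone; filled points passed an adjusted p of 0.05 and the black line is the median of the list. The hosts described here have medians of 0.38, 0.25 and −0.03, and the ribosomal protein hosts of −0.04, −0.05 and 0.00.

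Of the remaining lists, the thyroid marker FOXE1 fell in all 3 clones (−0.95, −1.06 and −1.20, adjusted p = 0.000138, 5.16e-05 and 2.79e-05), PAX8 rose in WB1 and TD5, and TG passed in none. The epithelial markers KRT8 and KRT18 fell in all 3 clones and KRT7 passed in none. Among the mitochondrial genes MT-ND6 (0.86 in D11, 0.88 in WB1), MT-ND5 (0.84 and 0.86) and MT-ND4 (0.74 and 0.69) rose most in D11, beside MT-ND4L (0.73) there and MT-ATP6 (0.69) in WB1.

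The profile of the 9 tested hosts over the 12 libraries, averaged after centring each on its own mean log2 level, was compared with 10626 genes that had a mean of at least 10 per 1000000. The closest were SHPRH, a ubiquitin ligase gene of DNA damage tolerance (root mean square difference 0.050), NOL8, a nucleolar protein (0.057), SUGP2, a protein with a splicing factor motif (0.061), ZCRB1, of the minor spliceosome (0.062), and MRPS25, of the mitochondrial ribosome (0.062). NOL8 had 1466, 1328 and 1338 scaled reads in TPC1, 1711, 1915 and 1828 in D11, 1714, 1623 and 1524 in WB1, with 1287, 1284 and 1380 in TD5. The members themselves lay at 0.075 (SNHG5) to 0.15 (SNHG7) from this average, so these genes followed the average more closely than any member did. They were chosen for that likeness, which is a description over 12 libraries.

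Levels between members can be compared only per length. With the length of all merged exons in the GENCODE annotation, GAS5 had 34.6 per 1000000 and kilobase in TPC1, SNHG6 21.5, SNHG7 13.0, SNHG1 12.6, ZFAS1 9.79, SNHG5 9.75, SNHG3 9.53, SNHG8 4.66 and SNHG12 3.14. The order depends on the length used, because the annotation lists many long isoforms. With the median isoform it was GAS5 (233), ZFAS1 (119), SNHG5 (111), SNHG6 (105), SNHG8 (63.1), SNHG7 (54.2), SNHG1 (38.1), SNHG3 (17.7) and SNHG12 (12.4). With the canonical isoform GAS5 was at 222, SNHG12 at 7.17 and SNHG8, then the last of the tested members, at 5.0. GAS5 came first with all 3 lengths and SNHG12 last with the merged exons and the median isoform. With the median isoform the distance between neighbours such as ZFAS1 and SNHG5 depended on the line. Their means were close in TPC1 (118.7 and 111.2) and D11 (132.6 and 132.7). ZFAS1 stood higher in WB1 (134.7 beside 116.6) and TD5 (121.6 beside 102.4). Their ranges over all 12 libraries overlapped (112 to 138 and 94.8 to 137), but these pool the lines, and the difference was not tested. SNHG15, at 0.017 with merged exons, was far under all others.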

How the data were processed

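RNA was measured in 12 libraries of stranded mRNA. Per the labels and the study's methods, STAR 2.5.3a placed the reads on GRCh38 and HTSeq 0.9.1 counted them per Ensembl gene, after which the authors scaled each library to 20000000 aligned reads. These deposited values were handled as a score, since they are whole numbers, rounded up, with sums of 20009833 to 20014191 per library, and not raw counts. Each value was expressed per 1000000 of its library sum, 1 was added, and the log2 values entered a linear model in limma 3.58.1 (R 4.3.3), with 1 mean for each line, a trend in the prior variance and Benjamini-Hochberg adjustment. A gene was tested if 3 or more libraries reached 1 per 1000000, as 16027 did. The edgeR quasi-likelihood method that the study names was not used, because it needs counts. Differences are on this log2 scale, which understates changes of low genes. A change counted as passed at an adjusted p under 0.05, and changes of at least 1.5-fold were counted separately. The script was tested on simulated data.

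The members and all lists were chosen with earlier results of these data known. Named were the members, DICER1, list genes past 1.5-fold (up to 4 per direction), snoRNA rows and genes overlapping a member, and the 5 nearest profiles, except that some overlapping and marker genes are not reported here. List genes below 1.5-fold were named after their values were seen. Alternatives covered the pseudocount, filter, scaling, libraries fitted, GC content of all merged exons (99.1% of tested genes had one), length of all merged exons, voom, a replicate block and leaving out each library. Samples with the same replicate number deviated together (correlations 0.107, 0.172 and 0.348, all over 0.1) only between TD5 and D11. Differently numbered libraries of TD5 and D11 ranged from −0.364 to 0.203, and those of other lines reached 0.316 (WB1 replicate 3 with D11 replicate 1). The fits reported are without a block, and the fit with it is an alternative. Neither the labels nor the methods give a reason for such a pairing. Gene positions came from a GENCODE annotation of GRCh38 and promoters from RefSeq on GRCh38.p14. Python 3.11.15 with numpy 2.4.6, pandas 2.3.3 and matplotlib 3.10.9 was used.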

Additional observations from a re-analysis of the deposited data

Results flagged for a closer look

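The change against TPC1 differed between clones for the results below, by the limma test of one clone against another (adjusted p under 0.05). Against D11, TD5 was lower for SNHG1 (log2 fold change −0.65), GAS5 (−0.60), SNHG3 (−0.55), SNHG12 (−0.45), SNHG6 (−0.41), SNHG8 (−0.38) and SNHG5 (−0.37). Against WB1, TD5 was lower for SNHG6 (−0.39), GAS5 (−0.37), SNHG12 (−0.35), SNHG3 (−0.33), SNHG1 (−0.32) and SNHG8 (−0.30). With the GC correction SNHG8 no longer passed against D11 (−0.17, 0.141), nor did SNHG1 (−0.18, 0.125), SNHG8 (−0.13, 0.306) and SNHG12 (−0.33, 0.0527) against WB1. WB1 was lower than D11 for SNHG1 (−0.34) and GAS5 (−0.23). DICER1 itself was lower in TD5 than in D11 (−0.58, adjusted p = 0.000657) and in WB1 (−0.34, 0.0307). The 13 mitochondrial protein genes also differed between these clones. Of them, 8 were lower in TD5 than in D11 (14.8% of all genes) and 5 were lower in TD5 than in WB1 (9.12%), and their part in the host values was not tested. With 3 libraries per line no library was examined for standing apart from its group.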

How the results depend on the processing

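Of the 29 differences of single hosts that passed an adjusted p of 0.05, 18 passed in every fit that left out 1 library, 18 passed under every other alternative, and 0 changed sign under either. Correcting for GC content left 1 of 2 hosts past 1.5-fold in D11 (SNHG3) and 0 of 2 in TD5 against D11, and the hosts past the test went from 6 to 3 in WB1 and from 6 to 3 in TD5 against WB1, the same with the replicate block added. Of all genes, the share that rose in WB1 went from 18.6% to 12% with the GC correction. The share that fell in TD5 against WB1 went from 9.12% to 5.67%. The GC correction moved the median host from 0.38 to 0.20 in D11 and from 0.25 to 0.12 in WB1, and the cause was not tested. Median-of-ratios scaling and the length correction, the latter with or without the block, each left 1 of 2 in TD5 against D11. With only the compared lines fitted, 0 hosts passed in TD5 against TPC1.

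Differences that did not pass and changed sign were SNHG8 in D11 (−0.16 with the GC correction, also with the block), SNHG8 in WB1 (−0.059 with median-of-ratios scaling, −0.20 with the GC and −0.0613 with the length correction, both also with the block, and −0.0011 with voom), SNHG5 in WB1 (−0.10 with the GC and −0.0498 with the length correction, both also with the block), SNHG6 in WB1 against D11 (0.0215 with the GC correction, also with the block) and SNHG7 in TD5 against WB1 (0.0503 with median-of-ratios scaling and 0.0273 with the length correction, also with the block).

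With no minimum fold, the hosts counted are the 7 in D11, 6 in WB1, 1 in TD5, 2 in WB1 against D11, 7 in TD5 against D11 and 6 in TD5 against WB1 given in the report. Leaving out 1 library gave 0 to 1 hosts past the test in TD5 against TPC1 (0 without TPC1 replicate 1 or TD5 replicate 1), 0 to 3 in WB1 against D11, 2 to 6 in TD5 against WB1, and 1 to 2 past 1.5-fold in TD5 against D11 (1 without TD5 replicate 3). Small differences that changed sign ranged from −0.0136 to 0.17 (SNHG1), −0.0708 to 0.10 (SNHG12), −0.0651 to 0.0128 (SNHG6) and −0.0044 to 0.0689 (ZFAS1) in TD5 against TPC1, from −0.0353 to 0.0298 (SNHG8) in WB1 against TPC1, from −0.19 to 0.0233 (SNHG12), −0.12 to 0.0643 (SNHG6) and −0.0069 to 0.05 (ZFAS1) in WB1 against D11, and from −0.0657 to 0.0330 (SNHG7) in TD5 against WB1.

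Same-numbered libraries had correlations all over 0.1 only in TD5 and D11, and some differently numbered ones were as high. The replicate block moved no count of hosts by over 1.5 times, with 6 of 7 past the test in D11 (ZFAS1, adjusted p = 0.055) and 7 of 7 in TD5 against D11. In TD5 against WB1 SNHG12 no longer passed (0.0638) and SNHG5 did (−0.19, 0.0451), and it changed no other call. The split of all genes past the test depended on scaling: in D11 3185 rose and 2144 fell, against 2309 and 2963 with median-of-ratios scaling, in WB1 2983 and 1973 against 2088 and 2854, in TD5 against D11 1351 and 2370 against 1944 and 1805, and in TD5 against WB1 725 and 1461 against 1217 and 1003. With the GC correction these splits were 1721 and 2148, 1924 and 2220, 1691 and 1432, and 1072 and 908. Depth limited SNHG15 and the snoRNA rows.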
